A study of Homo sapiens with 6 samples.

Results

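ISG15 conjugation (ISGylation) was described here at the level of messenger RNA through 5 genes, chosen by their known role in joining ISG15 to proteins: ISG15 itself, UBA7, UBE2L6, HERC5 and HERC6. These 5 were picked from the 60664 genes of the count table, and all 5 were among the 29022 genes with at least 10 counts over the libraries that could be tested. RNA was sequenced from U-2 OS, a human osteosarcoma cell line labelled as polyploid, after transfection with control siRNA (siControl) or with siRNA against SFPQ (siSFPQ), a nuclear RNA- and DNA-binding protein. Each condition had 3 libraries, called replicates 1 to 3, and the study wanted to know how the transcriptome changed on SFPQ loss. Both groups were U-2 OS cells, and the siRNA was delivered by lipid transfection, at 30 nM for SFPQ. No untransfected cells and no rescue are among the 6 libraries, so every value below is a difference between 2 transfected states of 1 cell line. The labels do not say whether the libraries came from separate cultures, although the study names them biological replicates, and p-values here measure only the spread between these libraries.

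ISG15 is a small protein built of a pair of ubiquitin-like folds, and it is joined to lysines of target proteins by a cascade that parallels ubiquitin conjugation. UBA7 activates ISG15 as the E1 enzyme, UBE2L6 carries it as the E2 enzyme, and HERC5 is the main E3 ligase in human cells, where it acts on newly made proteins at the ribosome. HERC6 is the neighbour and closest relative of HERC5 and is the main ISG15 ligase in the mouse. USP18 removes ISG15 from its targets and also binds the type I interferon receptor. The genes of this cascade are classical interferon-stimulated genes, induced when STAT2 and IRF9 complexes, or other IRF proteins, bind interferon-stimulated response elements in their promoters.

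The total count per library ranged from 43469321 to 47119203. A floor of 3 counts corresponded to 0.0642 to 0.0676 CPM (counts scaled to the library total after adjustment by TMM). SFPQ, the siRNA target, had 22338, 23139 and 21753 counts in siControl and 3140, 3863 and 3151 in siSFPQ, so every siSFPQ library was far below every siControl library. The SFPQ level fell by 2.73 on the log2 scale (SE 0.05). Of 8 osteoblast lineage markers, 5 averaged at least 1 CPM over the libraries, among them RUNX2, SPARC and COL1A1. COL1A2 averaged less, with 0.832 CPM in siControl and 1.09 CPM in siSFPQ, and SP7 had at most 5 counts in any library. BGLAP was near 0, with 0, 0 and 1 counts in siControl and 5, 6 and 6 in siSFPQ. The summed level of the 8 markers was 5060 to 5391 CPM in siControl and 4314 to 4346 CPM in siSFPQ. SPP1 among them fell by 1.33 on the log2 scale (SE 0.08). None of 5 leukocyte markers reached 1 CPM, and 2 of them were at or under 3 counts in every library. Their sum was 0.853 to 0.986 CPM in siControl and 0.963 to 1.31 CPM in siSFPQ, within which ITGAM rose by 2.21 (SE 0.52) and PTPRC fell by 1.61 (SE 0.41) on the log2 scale. The 2 epithelial markers EPCAM and CDH1 summed to 5.45 to 7.08 CPM in siControl and 5.97 to 6.72 CPM in siSFPQ, and the 2 endothelial markers to 0.899 to 1.09 CPM and 1.35 to 1.86 CPM. CDH1 rose by 0.76 (SE 0.23) and the endothelial CDH5 by 1.39 (SE 0.39) on the log2 scale. The part of other cells in the values below was not tested. In bulk RNA, a change in the share of cells that express a gene and a change in its level per cell cannot be told apart.

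The 4 cascade genes detected in both conditions rose in siSFPQ, by amounts that differed widely between steps. UBA7 rose 3.26-fold, ISG15 2.57-fold, HERC6 2.02-fold and UBE2L6 1.31-fold, while HERC5 had 0 counts in every siControl library and 3 to 6 counts per siSFPQ library. These 4 passed edgeR's quasi-likelihood test at a Benjamini-Hochberg (BH) adjusted p under 0.05, where 22.4% of all genes tested were higher by the same rule and 22.1% were lower. HERC5 reached the minimum of 10 counts through siSFPQ alone, so its test was not independent of that filter and it is left out of these counts. With the added requirement of a log2 fold change over 1.5, the threshold the study used, 1 of the 4 passed, UBA7, against 5.54% of all genes tested. At a log2 threshold of 1, and also at a 1.5-fold change, 3 of the 4 passed (UBA7, ISG15 and HERC6), against 8.07% and 11.7% of all genes tested. In each of the 4 every siSFPQ library was above every siControl library, a separation in that direction which 26.9% of all genes tested also showed. Their median log2 fold change was 1.19, beside 0.02 over all genes tested. An exact permutation test of 3 against 3 libraries cannot give a p below 0.1 (two-sided), and each of the 4 gave that value.

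**Figure D1:**
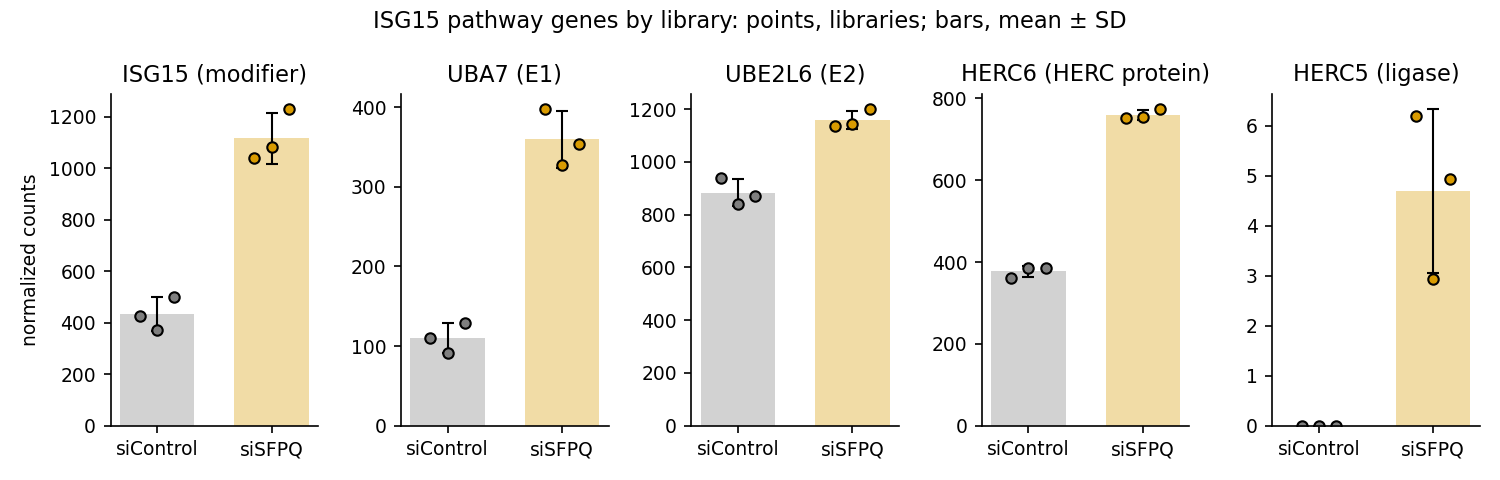
Normalized counts (linear axes from 0) of the 5 cascade genes in the siControl libraries (grey points) and siSFPQ libraries (orange points), with bars for the mean and error bars for the SD of 3 libraries. In every panel the 3 siSFPQ points lie above the 3 siControl points, with the narrowest relative gap for UBE2L6 and with HERC5 between 2.94 and 6.19 normalized counts against 0.

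ISG15 (ENSG00000187608), the modifier, lies at chr1:1001138-1014540 on the plus strand of GRCh38. Its counts were 427, 373 and 500 in siControl replicates 1 to 3 and 1006, 1106 and 1246 in siSFPQ replicates 1 to 3. The lowest siSFPQ library was thus above the highest siControl library by a wide margin. Normalized counts, scaled by TMM to a common library size, averaged 434.1 ± 64.4 in siControl and 1116 ± 100.1 in siSFPQ (SD, n = 3 each). The log2 fold change was 1.36 (SE 0.09, 95% interval 1.19 to 1.54; edgeR quasi-likelihood, BH-adjusted p = 3.22e-15), and 9.44% of all genes tested had a higher one. The interval reached past 1.5, but the estimate itself did not pass that threshold in the 12 other fits that were run. An antisense lncRNA, ENSG00000224969, overlaps the ISG15 gene span and had 0, 0 and 0 counts in siControl and 1, 2 and 0 in siSFPQ.

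UBA7 (ENSG00000182179), the E1 enzyme, lies at chr3:49805209-49813953 on the minus strand. It had 110, 91 and 129 counts in siControl and 385, 334 and 359 in siSFPQ. All 3 siSFPQ libraries were more than double the highest siControl library. Normalized counts averaged 110.2 ± 19.2 in siControl and 359.3 ± 35.4 in siSFPQ (SD, n = 3 each). With a log2 fold change of 1.70 (SE 0.13, 95% interval 1.44 to 1.96; edgeR quasi-likelihood, BH-adjusted p = 3.13e-13), UBA7 had the highest fold change of the 4 genes detected in both conditions. It passed both thresholds in all 12 alternative fits, with log2 fold changes of 1.58 to 1.83. Among all genes tested, 7.13% had a higher log2 fold change.

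UBE2L6 (ENSG00000156587), the E2 enzyme, lies at chr11:57551656-57568284 on the minus strand. Its counts were 937, 839 and 869 in siControl and 1101, 1167 and 1216 in siSFPQ. The groups did not overlap, yet the change was the smallest of the 4 genes detected in both conditions. Mean normalized counts were 883.0 ± 50.9 in siControl and 1159 ± 35.2 in siSFPQ (SD, n = 3 each). The log2 fold change was 0.39 (SE 0.06, 95% interval 0.26 to 0.52; edgeR quasi-likelihood, BH-adjusted p = 3.48e-06), and 28.2% of all genes tested had a higher one.

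HERC6 (ENSG00000138642), at chr4:88378739-88443097 on the plus strand, had 360, 385 and 384 counts in siControl and 730, 770 and 784 in siSFPQ. The replicates of each condition were close to each other and the groups were far apart. Mean normalized counts were 376.9 ± 14.0 in siControl and 759.9 ± 11.6 in siSFPQ (SD, n = 3 each). The log2 fold change was 1.01 (SE 0.08, 95% interval 0.85 to 1.17; edgeR quasi-likelihood, BH-adjusted p = 7.05e-13), with 13.5% of all genes tested above it.

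HERC5 (ENSG00000138646), the human E3 ligase, lies next to HERC6 at chr4:88457119-88506163 on the same strand. No siControl library had a count, and siSFPQ replicates 1 to 3 had 6, 3 and 5 counts. Every siSFPQ library was therefore above every siControl library, but replicate 2 was only at the floor of 3 counts. The siSFPQ mean was 4.69 ± 1.64 normalized counts (SD, n = 3), or 0.102 CPM. Set against a floor of 3 counts in siControl, this mean was 1.56-fold higher, 0.64 on the log2 scale. The spread of the siSFPQ counts is not part of that value. Replicate 2, at 2.94 normalized counts, was itself under the floor of 3.005, so 0.64 is not a bound that each library meets. No p is given as support for HERC5, because all of its counts were in siSFPQ and it passed the count filter through that group. HERC5 fell out of the genes tested without siSFPQ replicate 1, without siSFPQ replicate 3 or under a stricter count filter. HERC5 is also one of the innate immunity genes that the study picked on these libraries, so its direction here is not independent of that choice.

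Ratios of normalized counts were also taken within each library, between detected genes next to each other in the order of fold changes. That order came from these same libraries. The rise of each ratio in siSFPQ therefore follows from how the pairs were chosen and is not a separate result. The ratio of UBA7 to ISG15 normalized counts was 0.258, 0.244 and 0.258 in siControl and 0.383, 0.302 and 0.288 in siSFPQ, so that UBA7 gained on ISG15 in every siSFPQ library. For ISG15 over HERC6 the ratio was 1.19, 0.969 and 1.30 in siControl and 1.38, 1.44 and 1.59 in siSFPQ. For HERC6 over UBE2L6 it was 0.384, 0.459 and 0.442 in siControl and 0.663, 0.660 and 0.645 in siSFPQ. None of the 3 ratios overlapped between the groups, and their mean log2 values differed by 0.35, 0.36 and 0.62. Each gave a two-sided exact permutation p of 0.1 (BH-adjusted over 3 ratios, 0.1), the smallest that 3 against 3 libraries allow, so this test could not have passed 0.05. The 95% intervals of the log2 fold changes of UBA7 (1.44 to 1.96) and ISG15 (1.19 to 1.54) overlapped, whereas those of ISG15 and HERC6 (0.85 to 1.17), and of HERC6 and UBE2L6 (0.26 to 0.52), did not.

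Levels were compared between genes per length, as CPM divided by the summed exon length in kilobases (RPKM). In siControl the modifier and its E2 were the most abundant, with ISG15 at 10.9 ± 1.62 RPKM and UBE2L6 at 9.36 ± 0.540 RPKM (SD, n = 3 each), and the mean of UBE2L6 lay within 1 SD of that of ISG15. HERC6 was at 1.43 ± 0.0531 RPKM and UBA7 at 0.529 ± 0.0921 RPKM, so the E1 was the scarcest of the 4 detected messages before SFPQ loss. HERC5 was at 0 in siControl. In siSFPQ the order was the same, and ISG15 at 28.1 ± 2.53 RPKM now stood clear of UBE2L6 at 12.3 ± 0.373 RPKM. HERC6 reached 2.87 ± 0.0439 RPKM, UBA7 1.73 ± 0.170 RPKM and HERC5 0.0215 ± 0.00753 RPKM. Per length, ISG15 stood at 1.17 times UBE2L6 in siControl and at 2.29 times UBE2L6 in siSFPQ. Its excess over UBA7 went the other way, from 20.7 times to 16.3 times.

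**Figure D2:**
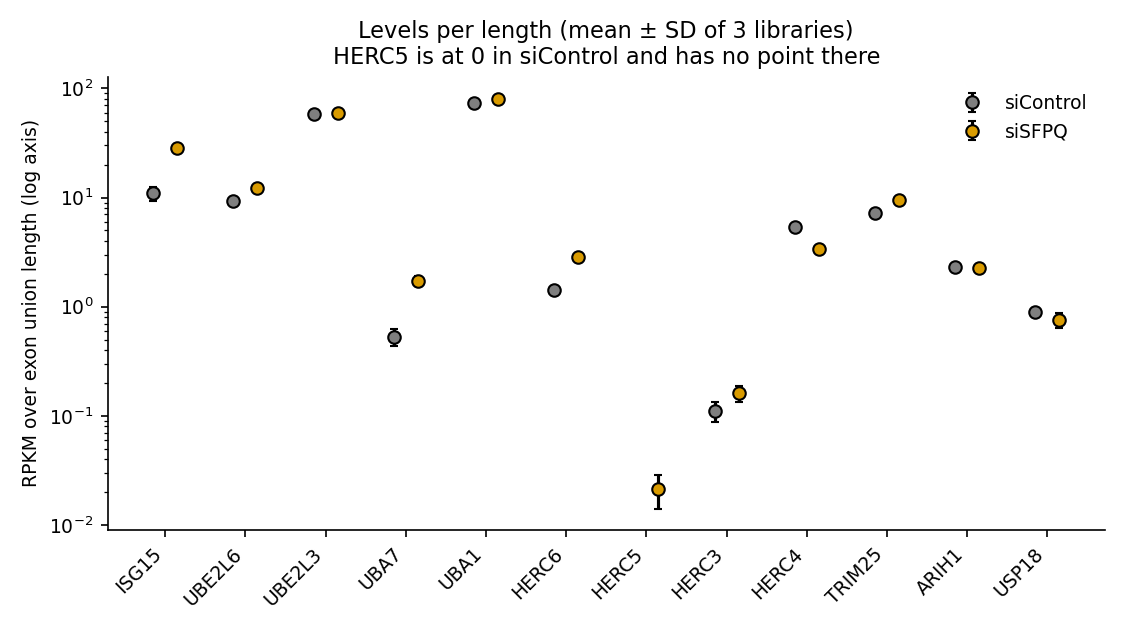
Level per length (RPKM, log axis) in siControl (grey) and siSFPQ (orange), as mean ± SD of 3 libraries, for the cascade genes, their nearest relatives and the other ISG15 enzymes. UBA7 moves from 0.529 to 1.73 and ISG15 from 10.9 to 28.1, whereas the ubiquitin enzymes UBE2L3 (57.6 and 59.0) and UBA1 (73.8 and 79.8) are close in both conditions.

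The enzymes that act beside the cascade did not all follow it. Of 3 listed, 1 was higher, 0 were lower and 2 did not pass, with a median log2 fold change of -0.03. Beside this list and those below, 22.4% of all genes tested were higher and 22.1% were lower by the same rule. USP18, the protease that takes ISG15 off its targets, had 159, 161 and 184 counts in siControl and 128, 170 and 127 in siSFPQ, and the groups overlapped. Its log2 fold change was -0.25 (95% interval -0.54 to 0.04; edgeR quasi-likelihood, BH-adjusted p = 0.156). USP18 shares a near-identical copy, USP41 (8, 26 and 14 counts in siControl and 2, 8 and 9 in siSFPQ), so the split of reads between them is uncertain. TRIM25, a ubiquitin ligase of the RIG-I pathway that can also attach ISG15, was at 4131 ± 160.8 normalized counts in siControl and 5336 ± 207.5 in siSFPQ (SD, n = 3 each). It rose by 0.37 on the log2 scale (SE 0.04; edgeR quasi-likelihood, BH-adjusted p = 4.19e-09). ARIH1, a RING-between-RING ligase, had a log2 fold change of -0.03 (95% interval -0.13 to 0.06; edgeR quasi-likelihood, BH-adjusted p = 0.618).

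Ubiquitin proteases that can react with ISG15 gave 1 higher, 3 lower and 1 that did not pass, of 5, with a median log2 fold change of -0.11. USP2 rose by 0.52 (SE 0.18), and USP5, USP14 and USP21 fell by 0.15, 0.11 and 0.20, all on the log2 scale. USP13 had a log2 fold change of -0.11 and did not pass. Of the 4 other HERC proteins, the large HERC1 and HERC2 and the small HERC3 did not pass, with log2 fold changes of -0.07, 0.02 and 0.54. HERC4 fell by 0.66 on the log2 scale (SE 0.04), from 3726, 3859 and 4015 counts in siControl to 2313, 2597 and 2474 in siSFPQ, opposite in sign to HERC5 and HERC6.

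**Figure D3:**
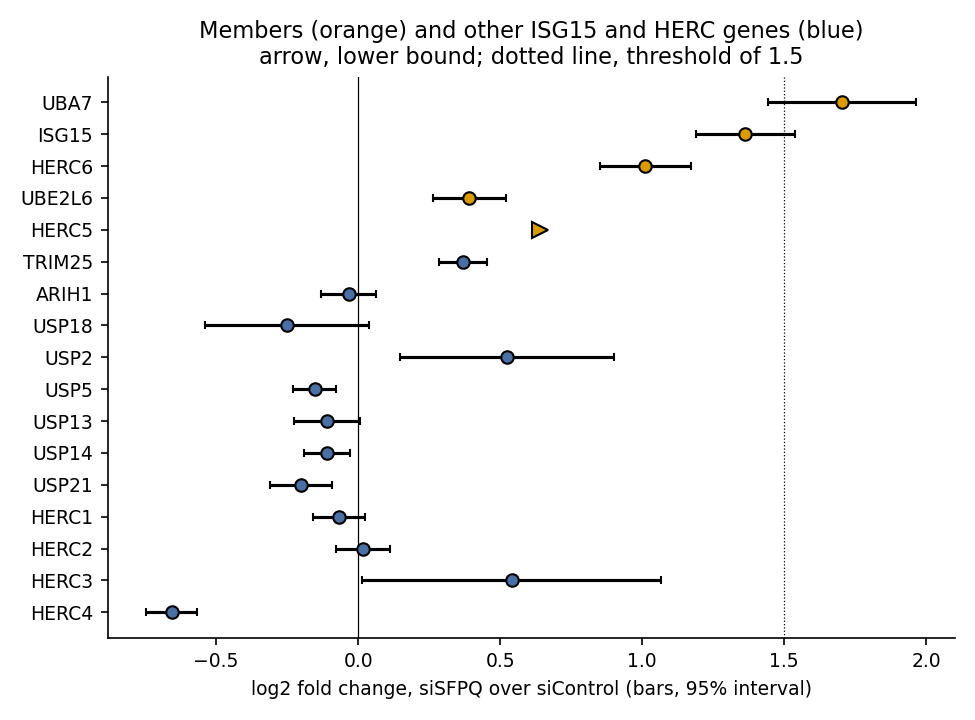
Log2 fold change of siSFPQ over siControl with its 95% interval for the cascade genes (orange) and for other ISG15 enzymes, ISG15-reactive proteases and HERC proteins (blue), with a dotted line at 1.5. The arrow, titled lower bound, marks the siSFPQ mean of HERC5 over a floor of 3 counts in siControl. The intervals of UBA7, ISG15, HERC6 and UBE2L6 lie above 0, that of USP18 runs from -0.54 to 0.04, and HERC4 sits at -0.66.

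The parallel cascades of other ubiquitin-like modifiers moved in both directions, as did all genes tested (22.4% higher and 22.1% lower). Among 9 activating enzymes other than UBA7, 3 were higher, 5 were lower and 1 did not pass, with a median log2 fold change of -0.13. The E1 of SUMO is a pair of proteins, and its SAE1 subunit fell from 11230, 11158 and 11600 counts in siControl to 3939, 4427 and 4175 in siSFPQ. This was a log2 fold change of -1.44 (SE 0.04), while its partner UBA2 fell by 0.16 on the log2 scale. ATG7, the E1 of the autophagy modifiers, fell by 1.00 on the log2 scale (SE 0.08), and UBA3, a subunit of the NEDD8 E1, rose by 0.53 (SE 0.04). UBA1, the main ubiquitin E1, rose by 0.11 (SE 0.04), against 1.70 for UBA7.

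Among 8 conjugating enzymes other than UBE2L6, 1 was higher, 4 were lower and 3 did not pass, with a median log2 fold change of -0.12. UBE2L3, the ubiquitin E2 nearest to UBE2L6 in sequence, had a log2 fold change of 0.03 (95% interval -0.05 to 0.11), below the interval of UBE2L6. ATG10, the E2 for ATG12, was the only gene of all the lists past both thresholds, with 627, 666 and 650 counts in siControl and 189, 202 and 161 in siSFPQ, a log2 fold change of -1.82 (SE 0.10). UBE2Z, the E2 that works with UBA6, rose by 0.44 (SE 0.04). Among 13 genes of other ubiquitin-like proteins, 12 were tested, 3 were higher, 4 were lower and 5 did not pass, all within log2 fold changes of -0.34 and 0.13. ISG15 at 1.36 was outside that range. UBD, which encodes the interferon-inducible modifier FAT10, had 0 counts in all 6 libraries.

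The messages of 20 reported ISG15 substrates gave 9 higher, 5 lower and 6 that did not pass, with a median log2 fold change of 0.09. The higher ones included the interferon-induced proteins IFIT1 (log2 fold change 0.96, SE 0.06), RIGI (0.94, SE 0.37) and IFIH1 (0.81, SE 0.10), which bind foreign or double-stranded RNA. Of 6 binding partners and receptors of ISG15, 3 were higher, 2 were lower and 1 did not pass, with a median log2 fold change of -0.05. ITGAL and ITGB2 encode the chains of the integrin LFA-1, the receptor of secreted ISG15. ITGAL had at most 9 counts in any library, and ITGB2 fell by 0.73 on the log2 scale (SE 0.09).

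Of 11 genes of the interferon drive on the cascade, 7 were tested, and 1 was higher, 0 were lower and 6 did not pass, with a median log2 fold change of 0.00. IRF1, a factor that can bind the promoters of interferon-stimulated genes, had 348, 295 and 334 counts in siControl and 696, 597 and 653 in siSFPQ. Every siSFPQ library was above every siControl library, and the log2 fold change was 0.99 (SE 0.09; edgeR quasi-likelihood, BH-adjusted p = 5.02e-11). IFNB1 and IFNL3 had 0 counts in all 6 libraries, and IFNL1 and IFNL2 each had 2 counts in a single siSFPQ library. These 4 interferon genes were thus under the floor of 3 counts in every library and were not tested. STAT2 had a log2 fold change of 0.03 (95% interval -0.06 to 0.12), IRF9 of 0.31 (-0.14 to 0.77) and IRF7 of -1.17 (-2.58 to 0.24), and none of these passed.

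**Figure D4:**
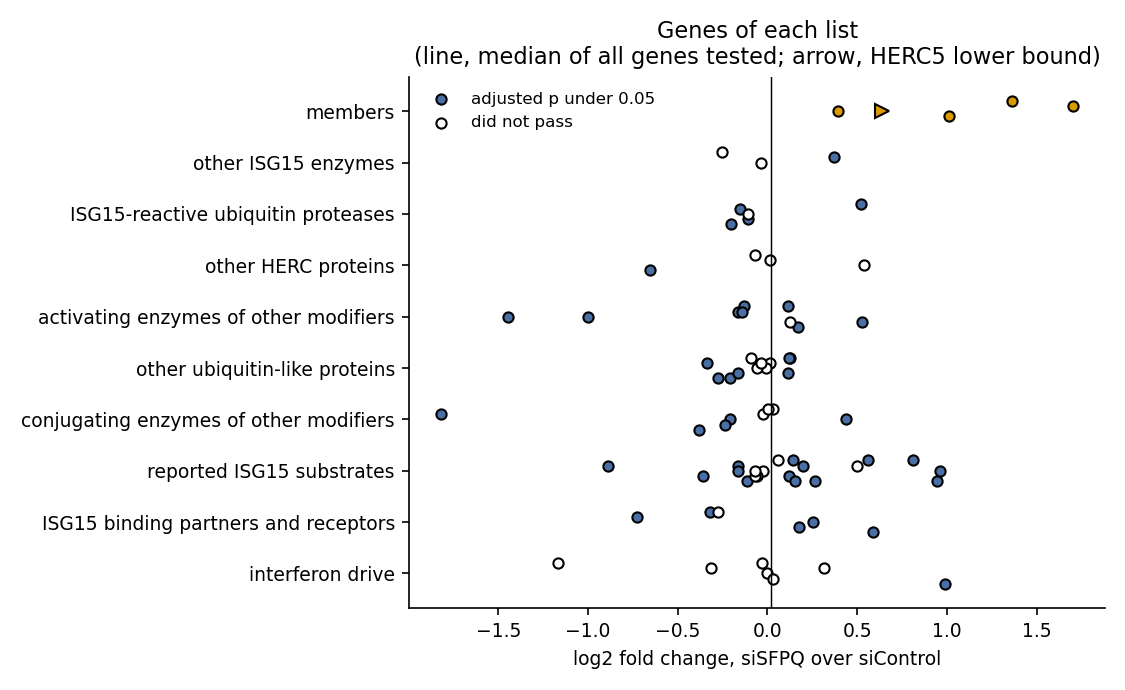
Log2 fold change of siSFPQ over siControl for each tested gene (points, spread vertically for legibility) in the cascade and in 9 lists around it, filled where the adjusted p was under 0.05, with a line at the median of all genes tested (0.02). HERC5 is drawn as an arrow at its siSFPQ mean over a floor of 3 counts in siControl. The cascade genes all lie to the right of the line, whereas each list holds genes on both sides of it.

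The promoters of the genes were read because the cascade is known as a target of interferon-responsive factors. RefSeq promoter windows of 250 bases before the start of transcription (GRCh38.p14) were found for 4 of the 5 genes, and UBA7 had no entry. The core of the interferon-stimulated response element, GAAANNGAAA on either strand, was found in the windows of ISG15 and HERC5 and not in those of UBE2L6 and HERC6, while 3.02% of 35116 promoter windows held it. The windows with it are printed 5′ to 3′ on the strand of the gene, from chr1:1013247-1013496 (plus strand) for ISG15, which is inside the gene span because the annotation holds a longer transcript, and chr4:88456869-88457118 (plus strand) for HERC5. The HERC6 window, chr4:88378602-88378851 (plus strand), is shown for contrast as that of the adjacent gene. It runs past the start of the annotated HERC6 gene at 88378739, and the UBE2L6 windows lie inside the UBE2L6 gene span. Bases further upstream of these genes were not searched. Capitals mark the motif matches, which on ISG15 are read as written and on HERC5 lie on the opposite strand.
ISG15: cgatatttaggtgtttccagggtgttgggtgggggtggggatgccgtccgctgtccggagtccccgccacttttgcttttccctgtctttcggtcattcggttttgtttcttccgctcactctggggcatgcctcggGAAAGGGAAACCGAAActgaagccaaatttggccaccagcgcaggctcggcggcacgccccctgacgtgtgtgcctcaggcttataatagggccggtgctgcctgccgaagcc
HERC5: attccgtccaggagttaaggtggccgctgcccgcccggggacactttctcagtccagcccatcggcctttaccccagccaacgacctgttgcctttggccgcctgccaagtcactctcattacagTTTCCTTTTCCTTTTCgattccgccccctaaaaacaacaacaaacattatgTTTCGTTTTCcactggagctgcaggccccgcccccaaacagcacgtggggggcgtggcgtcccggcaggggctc
HERC6: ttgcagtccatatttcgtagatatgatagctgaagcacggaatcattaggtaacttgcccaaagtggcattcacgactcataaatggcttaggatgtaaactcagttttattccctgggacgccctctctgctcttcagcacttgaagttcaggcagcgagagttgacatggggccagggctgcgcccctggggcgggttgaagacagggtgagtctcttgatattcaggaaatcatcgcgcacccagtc
In ISG15, 2 overlapping matches ran from base -113 to -104 and from -107 to -98 relative to the start. In HERC5, 2 overlapping matches ran from -125 to -116 and from -119 to -110, and another from -74 to -65. The gamma-activated site core, TTCNNNGAA, which reads the same on both strands, was in none of the windows of the 4 genes and in 6.57% of all promoter windows. A match is a description of the letters, its lack says only that they are not in that window, and no binding data were analysed here.

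The genes nearest to the cascade genes moved in both directions, as did all genes tested, of which 22.4% were higher and 22.1% lower. Among 16 genes that were the 2 nearest protein-coding genes on either side of a cascade gene, 13 were tested, 4 were higher, 2 were lower and 7 did not pass, with a median log2 fold change of 0.05. HERC6 and HERC5 are 14022 bases apart, and the genes beyond HERC6, PPM1K and ABCG2, had log2 fold changes of -0.02 and -0.01 that did not pass. Beside ISG15, AGRN had a log2 fold change of 0.05 and did not pass, HES4 had 0 counts in all libraries, and PERM1 rose from 22, 23 and 17 counts to 62, 100 and 89. Beside UBA7, INKA1 at 179 bases did not pass (-0.42, 95% interval -1.08 to 0.23) and TRAIP fell by 0.21 on the log2 scale. CDHR4, 5336 bases beyond the end of UBA7 and on the same strand, rose from 3, 14 and 6 counts to 55, 49 and 75, a log2 fold change of 2.94 (SE 0.38). Beside UBE2L6, SERPING1, the complement C1 inhibitor, had a log2 fold change of 0.03 and did not pass, and YPEL4 rose by 0.90 (SE 0.11). The other neighbours that passed were CAMKV, which rose by 1.13 (SE 0.42), and TIMM10, which fell by 0.25 on the log2 scale.

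**Figure D5:**
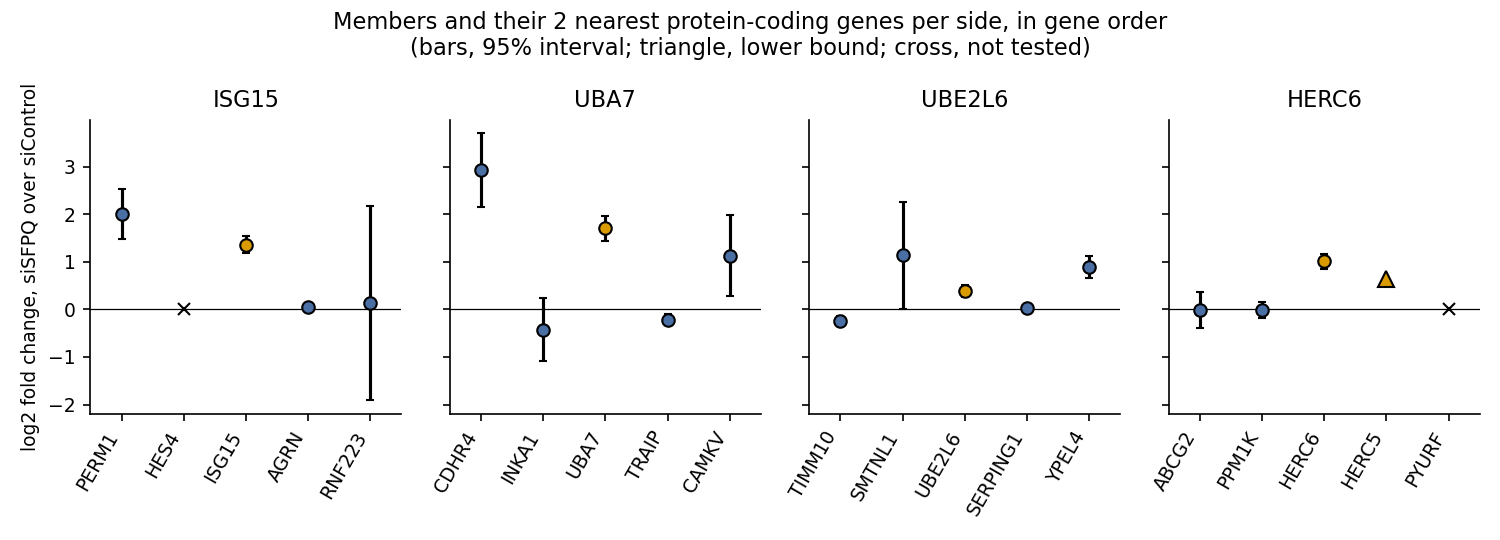
Log2 fold change of siSFPQ over siControl with its 95% interval for ISG15, UBA7, UBE2L6 and HERC6 (orange, centre) and the 2 nearest protein-coding genes on each side (blue), in gene order, with crosses for genes that could not be tested. The triangle, titled lower bound, marks the siSFPQ mean of HERC5 over a floor of 3 counts in siControl. CDHR4 (2.94) lies above UBA7 and PERM1 lies above ISG15, while AGRN is at 0.05 and INKA1 at -0.42.

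Likeness of pattern was measured as the root mean square difference of centred log2 CPM over the 6 libraries, against 16476 protein-coding genes. The gene nearest to ISG15 was ALS2CL (0.079 on the log2 scale), followed by RFPL2 and CHD9NB. Nearest to UBA7 were SPON1 (0.0889), STING1 (0.0894) and SDR16C5 (0.112). STING1, which encodes the adaptor of the cytosolic DNA sensor cGAS, had 288, 256 and 319 counts in siControl and 879, 866 and 950 in siSFPQ. UBE2L6 was closest to ITPKC, PLCB3 and MRPS2 (0.0172 to 0.0286), and HERC6 to FMNL1, IL2RB and IFIT1 (0.0266 to 0.0419). Like HERC5, STING1 and IFIT1 are among the innate immunity genes that the study picked on these libraries, so their rise is not independent of that choice. No cascade gene was among the 3 nearest of another. With 6 libraries in 2 conditions, a close pattern mostly means a similar fold change.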

How the data were processed

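Poly(A) RNA libraries (TruSeq, paired-end reads) from 3 siControl and 3 siSFPQ samples were analysed. The authors checked the reads with FastQC, quantified them with STAR 2.7.9a on GRCh38 and deposited whole, unscaled read counts for each Ensembl gene. The strand setting of the counting is not given in the sources used here. Columns were matched to samples by title. The test was the two-sided quasi-likelihood test of edgeR 4.0.16 (R 4.3.3) without covariates, after TMM scaling, on the 29022 genes that had 10 or more counts in total, and p-values were adjusted by Benjamini-Hochberg over all of these. DESeq2 1.42.0 was an alternative. Intervals are 95% and floors (3 counts) cover counting error only. The fit was tested on simulated data. Exon lengths and positions came from GENCODE 44, in which 99.67% of the identifiers of the table were found, and promoters from RefSeq.

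Genes named were the 5 cascade genes, SFPQ, genes of 9 lists (values for the first 3 lists and for genes past both thresholds; further examples were chosen after their values were seen), the 2 nearest protein-coding genes per side and the 3 nearest in pattern. STING1 values were also added after they were seen. The members and lists were chosen with earlier results of these data known. Alternatives were other filters, scalings and thresholds, DESeq2, the replicate block and leaving out each library. Values of some listed genes are not reported here.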

Additional observations from a re-analysis of the deposited data

How the results depend on the processing

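ISG15, UBA7, UBE2L6 and HERC6 stayed higher at an adjusted p under 0.05 in all 12 alternative fits, with log2 fold changes of 1.26 to 1.48, 1.58 to 1.83, 0.36 to 0.46 and 0.98 to 1.07. With HERC5 counted by its fitted value, 2 cascade genes were past both thresholds, a count that the minimum of 10 counts decides. It was 1 under the stricter filter (filterByExpr), which did not test HERC5, and 4 at a log2 threshold of 1 (8.07% of all genes tested) or at a 1.5-fold threshold (11.7%). Leaving out 1 library gave 1 to 2, with 1 without siSFPQ replicate 1 or siSFPQ replicate 3, since HERC5 then had under 10 counts. Over all genes, the count of higher genes past both thresholds was 1609, and 967 under the stricter filter.

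The replicate numbers were not taken as pairs. Same-numbered samples had correlations of their deviations of -0.0251, 0.0697 and 0.0355 over 15641 genes, and not every sample correlated best with its own number. With the replicate block and HERC5 left out, UBA7 alone of the cascade genes passed both thresholds, as did 1419 of the 29022 genes tested. ISG15, UBA7, UBE2L6 and HERC6 were higher at an adjusted p under 0.05, as were 6530 of the genes tested.

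HERC5 and the interferon genes were at or near the floor of 3 counts per library, where low expression and none cannot be told apart at this depth.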
